A study of Mus musculus with 36 samples.

Results

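The effect of checkpoint blockade on RNA was compared between the heart and skeletal muscle of MC38 tumor-bearing C57BL/6 wild-type mice. The comparison was the ICB minus IgG difference in heart, minus the same difference in muscle, on the scale log2(FPKM + 1). It used 12 of the 36 libraries of the series and 10585 of 18760 genes, those with at least 1 FPKM in at least 3 of the 6 libraries of each tissue. The FPKM unit corrects fragment numbers for gene length and library depth, as computed by the authors. The 4 groups of 3 libraries each were heart ICB, heart IgG, muscle ICB and muscle IgG. ICB mice received antibodies to PD1 and CTLA4 together at high dosage, and IgG mice received control antibody. All mice carried tumors of MC38, a mouse colon adenocarcinoma line, and no tumor-free mice were compared. Tissue was frozen in liquid nitrogen, total RNA was taken with TRIzol, and libraries were made from 1 ug with the TruSeq kit. Mice were matched for age and sex, and their ages are not stated in the labels. The library numbers in the titles are shared by heart and muscle for 2 ICB and 2 IgG libraries, and the labels do not say whether a number stands for 1 mouse. Nothing in the labels says that libraries of a group came from separate mice, so p-values measure only the spread between these libraries, which may be technical.

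PD1 and CTLA4 are receptors that restrain T cells, and antibodies against them release that restraint. Inflammation of the heart (myocarditis) and of skeletal muscle (myositis) are known side effects of such treatment in patients. Heart and skeletal muscle are the striated muscles of the body. Both contract with sarcomeres of actin and myosin, but skeletal fibres answer to a motor nerve and can waste by protein breakdown through the ubiquitin-proteasome system, while cardiomyocytes beat continuously and rely on mitochondrial respiration.

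The libraries held the labelled tissue. Myh6, the cardiac myosin heavy chain, had 5342, 6102 and 5944 FPKM in heart ICB and 5611, 5340 and 6346 FPKM in heart IgG, against 0.505 to 1.03 FPKM in muscle. Of the 7 adipocyte markers, 6 (Adipoq, Plin1, Cidec, Lep, Ucp1 and Retn) stayed under 1 FPKM in every heart library, while the sum of all 7 in muscle was 451 to 927 FPKM in ICB and 818 to 1949 FPKM in IgG. All 6 T cell markers and all 4 B cell markers stayed under 1 FPKM in both tissues, and none was among the genes tested. Recovered depth was 19005189 to 25285036 reads per library over these 12 libraries. Libraries that stood apart were heart ICB replicate 3, with the lowest matrix and mitochondrially encoded list values of its tissue, and muscle IgG replicate 2, which had the lowest weight (0.1806) when library weights were estimated. The median standard deviation of a gene within a group was 0.14 in heart ICB, 0.0989 in heart IgG, 0.155 in muscle ICB and 0.268 in muscle IgG on the log2 scale. Most results that rest on these libraries are given with and without them.

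No gene passed the test for a blockade effect that differed between heart and muscle. With limma and Benjamini-Hochberg adjustment, 0 of 10585 genes (0%) passed an adjusted p of 0.05 for the difference between tissues, and the smallest adjusted p was 0.742. The same count was 0 (0%) for the mean effect of both tissues, 0 (0%) for heart alone and 0 (0%) for muscle alone, with smallest adjusted p-values of 0.967, 0.516 and 0.232. At an unadjusted p under 0.05, limma gave 678 genes (6.41%) for the difference, 527 (4.98%) for the mean effect, 124 (1.17%) for heart and 1281 (12.1%) for muscle. By chance alone 529.25 genes would be expected at that threshold, so the mean effect gave no more than that and heart gave fewer. A count model on whole reads recovered from the FPKM (limma-voom) also passed 0 genes in each of the 4 comparisons, with 683, 511, 115 and 1301 genes at an unadjusted p under 0.05. Both fits used 1 spread per gene for heart and muscle, although muscle IgG libraries varied more. With the 6 libraries of each tissue fitted alone, limma gave 483 genes in heart and 552 in muscle. With estimated library weights it gave 675 and 564, so the counts do not rank the tissues. Directions below are therefore descriptions of these libraries, and all statements of higher and lower are of ICB relative to IgG.

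Across genes the responses of heart and muscle were more often opposite than alike. The sign of the ICB minus IgG difference was opposite in 54.8% of the 10585 genes and the same in 45.2%, with a Pearson r of -0.108 and a Spearman rho of -0.136 across genes. Among genes that differed by at least 0.1, 0.2, 0.3 and 0.5 in both tissues, 59.8% of 2925, 63.4% of 749, 57.1% of 266 and 56.9% of 51 went opposite ways. The balance moved with single libraries. Without heart ICB replicate 3, 50.1% of genes had the same sign and r was 0.0349, and without muscle IgG replicate 2 the share was 49.7% and r was 0.0112. Genes within a library share its depth and makeup, so these values carry no p.

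Another description counts genes whose 3 ICB libraries all lay on one side of the 3 IgG libraries. With 3 libraries against 3, the order of libraries alone gives such separation in many of 10585 genes. No expected count was computed for it, so separation by itself marks no gene as a response to blockade. In heart, 517 genes (4.88%) were higher and 518 (4.89%) lower in this sense, and in muscle 624 (5.9%) were higher and 595 (5.62%) lower. Both tissues met it together in 117 genes, of which 24 (0.227%) were higher in both, 18 (0.17%) lower in both, 40 (0.378%) higher in heart and lower in muscle, and 35 (0.331%) lower in heart and higher in muscle. With all 12 libraries the opposite genes outnumbered the alike ones, 75 against 42. These joint counts are not given without heart ICB replicate 3 or muscle IgG replicate 2, on which the balance of signs above rested. Rescaling each library to a common sum (the TPM scale) moved the lower-in-heart, higher-in-muscle count to 14 and the lower-in-both count to 6.

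**Figure D1:**
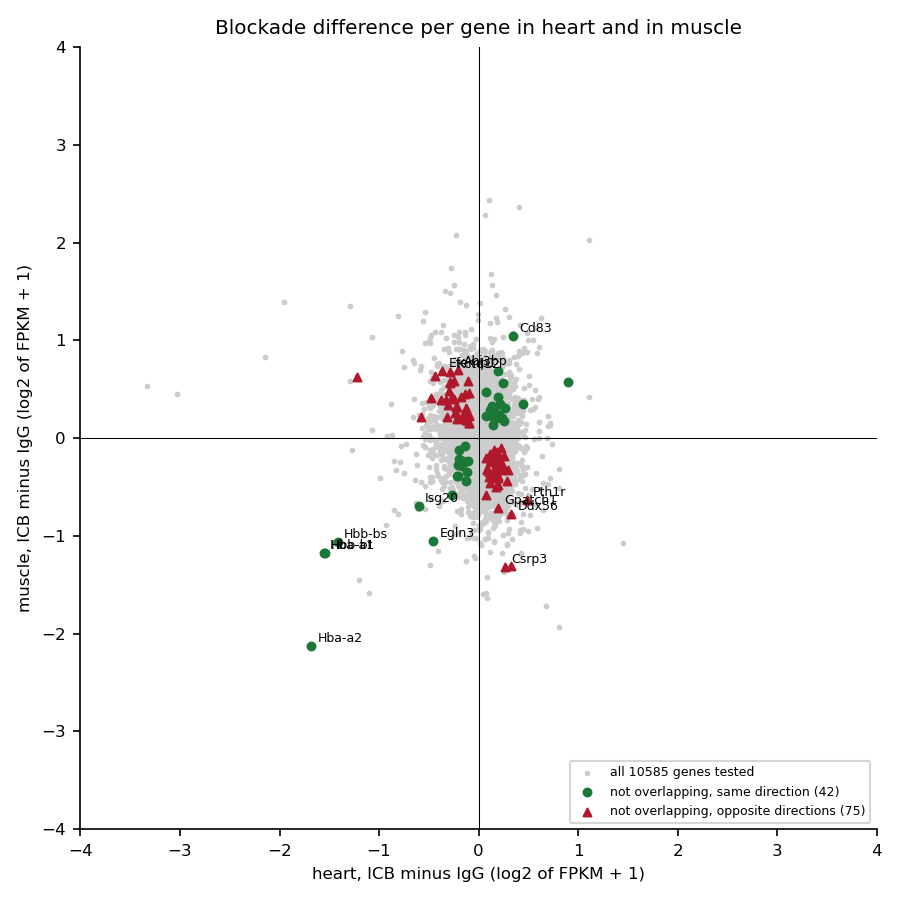
Each point is 1 of 10585 genes, with the ICB minus IgG difference in heart on the x axis and in muscle on the y axis, both in log2(FPKM + 1). Circles mark the 42 genes whose groups did not overlap and went the same way in both tissues, triangles the 75 that went opposite ways, and the cloud shows little diagonal trend (r -0.108).

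Of 40 lists with tested members, the median difference between tissues was below 0 in 24 and above 0 in 14. List values (the mean log2 level of the tested members in a library) did not overlap between ICB and IgG in 4 lists in heart and 7 in muscle. In 4 lists they did so in both tissues and in the same direction (heat shock and unfolded protein, dendritic cells, smooth muscle and pericytes, and erythroid), and in 0 lists in opposite directions. The dendritic cell list had only 2 tested members, Zbtb46 and Cd83, of which Cd83 passed the filter in muscle only through ICB libraries. The medians over all genes tested were 0.00 in heart and 0.00 in muscle.

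**Figure D2:**
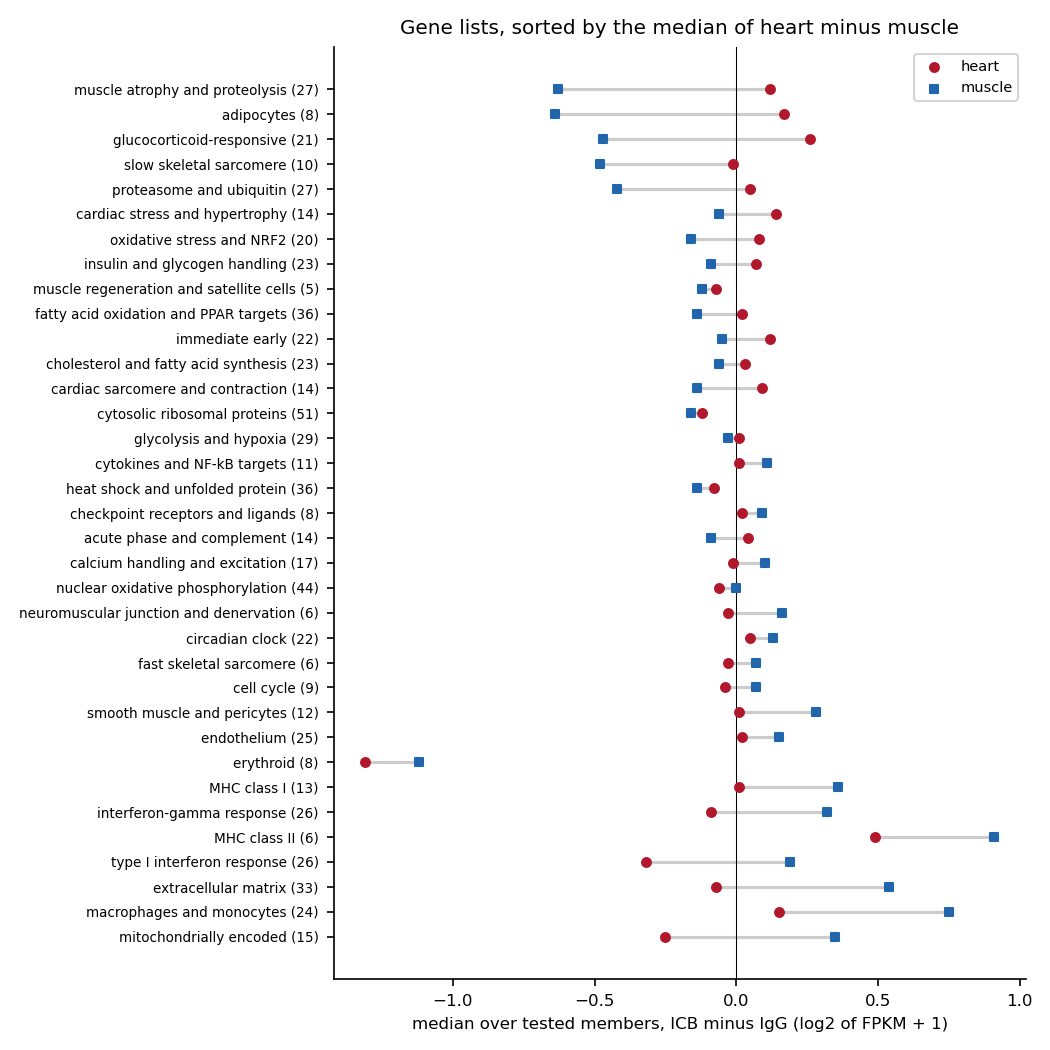
For each of the 35 lists with at least 5 tested members (their number in parentheses), the circle gives the median ICB minus IgG difference in heart and the square that in muscle, in log2(FPKM + 1). Atrophy, adipocyte, glucocorticoid and proteasome lists sit higher in heart than in muscle at the top, and mitochondrially encoded, macrophage and extracellular matrix lists lie on the muscle-higher side at the bottom.

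Proteasome genes were lower in muscle ICB and near level in heart. In bulk tissue, fewer cells of a type and less RNA per cell cannot be told apart. The proteasome degrades ubiquitin-tagged proteins, and in skeletal muscle its subunits are known to be induced in wasting. Of 27 tested members of the proteasome and ubiquitin list, 19 were higher and 8 lower in heart, while all 27 were lower in muscle ICB than in muscle IgG. Their median was 0.05 in heart and -0.42 in muscle. Without muscle IgG replicate 2, all 27 were still lower in muscle, with a median of -0.29. In 12 of the 27 the muscle groups did not overlap, against 5.62% of all genes, and 13 of the 27 had an unadjusted p under 0.05 for the difference (limma), against 6.41% of all genes. Without muscle IgG replicate 2 the count was 12, against 10.5% of all genes. The list value was 5.45, 5.43 and 5.49 in heart ICB and 5.39, 5.44 and 5.4 in heart IgG, which overlapped. In muscle it was 6.13, 6.30 and 5.98 in ICB and 6.31, 6.88 and 6.56 in IgG, which did not.

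Psmc2, an ATPase subunit of the base of the 19S regulatory particle, was opposite with no overlap in either tissue. It had 18.1, 18 and 18.8 FPKM in heart ICB and 16.8, 17.3 and 17.9 FPKM in heart IgG. Its muscle levels were 37.9, 43.8 and 33.1 FPKM in ICB and 56.0, 66.3 and 51.3 FPKM in IgG. Every heart ICB library was above every heart IgG library and every muscle ICB library below every muscle IgG library, although the heart gap was narrow. The difference between tissues was 0.66 ± 0.18 (SE) in log2, at an adjusted p of 0.742 (limma). With all 36 libraries of the series in the fit, the muscle effect of -0.59 ± 0.11 (SE) had an adjusted p of 0.0146 (limma). That fit shares 1 spread per gene over all 6 tissues, and muscle IgG varied most of the 4 groups here. Its SE may therefore understate the spread in muscle. Psmc2 starts at chr5:21785283 on the plus strand, beside the start of Dnajc2 on the minus strand (chr5:21757267-21785251, GRCm38). Dnajc2, a chaperone bound to ribosomes, was split the same way, with 6.85, 6.58 and 8.76 FPKM in heart ICB against 5.99, 6.45 and 6.38 FPKM in heart IgG. Its muscle levels were 8.75, 9.15 and 8.38 FPKM in ICB against 15.6, 10 and 10.9 FPKM in IgG.

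Psma7, a structural subunit of the 20S core, had 33.0, 32.8 and 39.1 FPKM in heart ICB and 32.6, 34.3 and 33.4 FPKM in heart IgG, and 45.0, 57.3 and 45.9 FPKM in muscle ICB against 62.8, 75.5 and 70.7 FPKM in muscle IgG. Psmd4, a ubiquitin receptor, differed by 0.23 in heart and by -0.53 in muscle. Psmd11, a lid subunit, differed by 0.07 in heart and by -0.71 in muscle, where muscle IgG replicate 2 stood highest at 57.6 FPKM. The muscle groups of all 3 genes were separate and the heart groups overlapped.

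**Figure D3:**
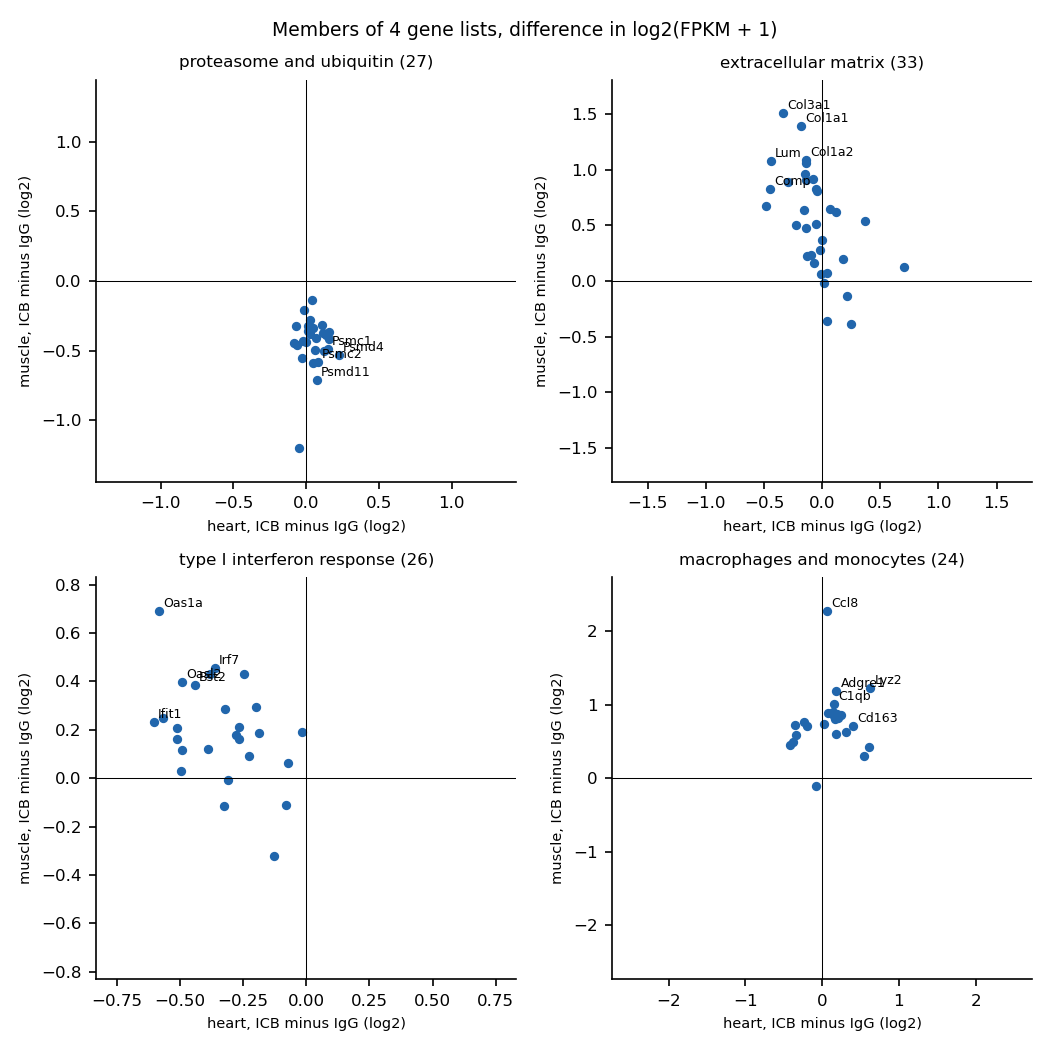
Each point is 1 tested member of a list, with the ICB minus IgG difference in heart on the x axis and in muscle on the y axis (log2). All 27 proteasome members lie below the horizontal line, 29 of 33 matrix members and 22 of 26 type I interferon members above it, and the panels have different axis ranges.

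Genes of muscle wasting were lower in muscle ICB, mainly against 1 library. Of the 27 tested members of the muscle atrophy and proteolysis list, 17 were higher in heart and all 27 were lower in muscle, with medians of 0.12 in heart and -0.63 in muscle. The heart median was 0.03 without heart ICB replicate 3. Fbxo32, the muscle ubiquitin ligase atrogin-1, had 28.6, 18.7 and 35.1 FPKM in heart ICB and 26.5, 21.2 and 24 FPKM in heart IgG. Muscle libraries held 198, 247 and 88.4 FPKM in ICB and 281, 738 and 126 FPKM in IgG. Both pairs of groups overlapped. The list value of muscle IgG replicate 2 was 7.35, against 5.81 and 5.51 in the other muscle IgG libraries. Without it, 20 members were lower and 7 higher in muscle, the muscle median was -0.13, and the median difference between tissues was 0.21 in place of 0.81. The 21 glucocorticoid-responsive genes had the same dependence. They were higher in heart in 19 and lower in muscle in 19, with medians of 0.26 in heart and -0.47 in muscle. The muscle median was 0.09 without muscle IgG replicate 2, and the heart median was 0.07 without heart ICB replicate 3. Ddit4, an inhibitor of mTOR signaling that both lists hold, had 71.8, 58.0 and 11.8 FPKM in muscle ICB and 35.5, 674 and 24.7 FPKM in muscle IgG. Muscle IgG replicate 2 was the highest, and the other muscle IgG libraries lay within the range of muscle ICB.

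The extracellular matrix list was higher in muscle ICB and near level in heart. These genes encode the collagens, fibronectin and proteoglycans that fibroblasts lay down around fibres. Of 33 tested members, 23 were lower in heart and 29 were higher in muscle, with medians of -0.07 and 0.54. At an unadjusted p under 0.05 for the difference (limma) there were 14, against 6.41% of all genes. The list value was 3.65, 3.68 and 3.24 in heart ICB and 3.63, 3.63 and 3.48 in heart IgG. In muscle it was 4.07, 4 and 3.85 in ICB and 3.19, 3.67 and 3.45 in IgG. The muscle groups did not overlap in 15 members, all higher, against 5.9% of all genes. The heart side rested on ICB replicate 3, the lowest heart library. Without it, 24 of 33 members were higher in heart, the heart median was 0.10, and 21 members were higher in both tissues. The heart median was also above 0, at 0.03, with libraries rescaled to a common sum. The summed fibroblast markers (Col1a1, Col1a2, Col3a1, Dcn and Pdgfra, all 5 tested and all list members) were 222 to 230 FPKM in heart ICB, 232 to 258 FPKM in heart IgG, 415 to 532 FPKM in muscle ICB and 256 to 486 FPKM in muscle IgG.

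Col3a1, a fibrillar collagen of soft tissue, was higher in muscle ICB. It had 16.1, 16.6 and 5.90 FPKM in heart ICB and 14.1, 17.2 and 14.1 FPKM in heart IgG. The levels in muscle were 30.8, 32.2 and 37.1 FPKM in ICB and 9.24, 8.87 and 16.4 FPKM in IgG. The muscle groups were separate, and in heart only ICB replicate 3 was low. The difference between tissues was -1.84 ± 0.45 (SE) in log2, with an adjusted p of 0.742 (limma). Col5a2, a collagen that regulates fibril width, had 3.26, 3.60 and 2.56 FPKM in heart ICB and 4.13, 3.49 and 3.22 FPKM in heart IgG. Its muscle levels were 4.94, 5.02 and 4.79 FPKM in ICB and 2.80, 2.86 and 2.74 FPKM in IgG, with little spread and no overlap. Fn1, fibronectin, differed by -0.05 in heart and by 0.82 in muscle.

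Abi3bp, a matrix-binding protein outside the list, was opposite with no overlap in either tissue. It had 1.23, 1.49 and 1.59 FPKM in heart ICB and 1.83, 1.69 and 1.91 FPKM in heart IgG, and 4.94, 4.40 and 4.81 FPKM in muscle ICB against 1.99, 2.48 and 3.17 FPKM in muscle IgG. Its difference between tissues, -0.91 ± 0.18 (SE), had the smallest unadjusted p of all genes (0.000346, limma). Efemp1, a fibulin of elastic matrix, had the same pattern, at -0.37 in heart and 0.69 in muscle. Elastin (Eln) instead was higher in both, at 0.37 in heart and 0.54 in muscle.

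MHC class II genes were higher in both tissues. MHC class II proteins display peptides to CD4 T cells and are made by macrophages, dendritic cells and B cells. All 6 tested members were higher in heart ICB and in muscle ICB, with medians of 0.49 and 0.91. All 6 were also higher in both without heart ICB replicate 3 (medians 0.73 and 0.91) and without muscle IgG replicate 2 (0.49 and 0.93). In heart 1 member was higher with no overlap, against 4.88% of all genes. The count was 5 without heart ICB replicate 3, against 10.9% of all genes, and without heart ICB replicate 1 the heart median was 0.31. All 6 had an unadjusted p under 0.05 for the mean effect (limma), against 4.98% of all genes. Cd74, the invariant chain, had 63.2, 65.6 and 34.9 FPKM in heart ICB and 33.9, 38.2 and 32.7 FPKM in heart IgG. In muscle it had 83.7, 170 and 184 FPKM in ICB and 44.9, 69.0 and 80.0 FPKM in IgG. Muscle groups were separate, and in heart only ICB replicate 3 lay within the IgG range. The mean effect of both tissues was 0.85 ± 0.23 (SE), with an adjusted p of 0.967 (limma). H2-Aa, a class II alpha chain, had 15.5, 12.3 and 8.41 FPKM in heart ICB and 8.17, 7.85 and 8.20 FPKM in heart IgG, with no overlap, and its muscle groups overlapped. Members of this gene family are similar in sequence, and shared reads could be split between them.

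Macrophage genes were mostly higher in muscle ICB, and in heart the direction rested on single libraries. Of 24 tested members of the macrophage and monocyte list, 17 were higher in heart and 23 in muscle, with medians of 0.15 and 0.75. The heart median was -0.02 without heart ICB replicate 2 and 0.02 without heart IgG replicate 3. In muscle 1 of the 24 was higher with no overlap, against 5.9% of all genes. Without muscle IgG replicate 2 there were 9, against 12% of all genes. The 7 macrophage markers, all tested, summed to 180 to 278 FPKM in heart ICB and 155 to 209 FPKM in heart IgG, and to 142 to 398 FPKM in muscle ICB and 89.2 to 208 FPKM in muscle IgG, so both pairs of ranges overlapped. Their part in the class II values was not tested. Lyz2, lysozyme of myeloid cells, had 112, 182 and 150 FPKM in heart ICB and 110, 103 and 73.2 FPKM in heart IgG. Its muscle levels were 123, 356 and 322 FPKM in ICB and 63.7, 133 and 128 FPKM in IgG. Csf1r, the receptor for the macrophage growth factor CSF1, had 15.4, 20 and 17.7 FPKM in heart ICB and 16.2, 13.6 and 14.5 FPKM in heart IgG, which overlapped. Muscle libraries held 14.4, 21.4 and 18.7 FPKM in ICB and 6.97, 12.8 and 9.19 FPKM in IgG. Muscle ICB replicate 1 was the lowest muscle ICB library for both, and the muscle groups were separate for Csf1r and overlapped for Lyz2.

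Timd4, a phosphatidylserine receptor of resident macrophages, had 0.829, 1.06 and 0.990 FPKM in heart ICB and 1.77, 1.64 and 1.49 FPKM in heart IgG, against 1.42, 1.67 and 1.75 FPKM in muscle ICB and 0.479, 0.902 and 1.48 FPKM in muscle IgG. Lyve1, a hyaluronan receptor of resident macrophages and lymphatic vessels, had 11.4, 16.1 and 12.9 FPKM in heart ICB and 19.2, 16.5 and 16.5 FPKM in heart IgG. Both were lower in heart ICB with no overlap and higher on average in muscle ICB, by 0.45 and 0.73. Timd4 lay near the filter of 1 FPKM and met it in each tissue mainly through the group where it was higher. Its heart separation is therefore given as a description. Cd83, a surface marker of activated dendritic cells, was higher in both tissues with no overlap. It had 2.83, 1.28 and 1.48 FPKM in heart ICB and 1.24, 1.24 and 1.10 FPKM in heart IgG, and 1.80, 1.48 and 1.25 FPKM in muscle ICB against 0, 0.354 and 0.333 FPKM in muscle IgG. It passed the filter in muscle only through the 3 ICB libraries, so its muscle separation was bound to appear and is given as a description.

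Type I interferon targets were lower on average in heart ICB. Type I interferons act through transcription factors that bind the interferon-stimulated response element (ISRE). All 26 tested members of the list were lower in heart, with a median of -0.32, and in 4 of them (Ifih1, Ifit1, Ifit2 and Parp14) the heart groups did not overlap, against 4.89% of all genes. Without heart ICB replicate 3, 23 of 26 were lower and the median was -0.26. In muscle 22 of 26 were higher, with a median of 0.19, but that side rested on muscle IgG replicate 2. Without it, 16 of 26 were lower in muscle and the median was -0.09, and without muscle ICB replicate 3 the median was 0.05. Ifit2, an interferon-induced RNA-binding protein, had 5.87, 6.10 and 4.82 FPKM in heart ICB and 8.75, 8.90 and 7.18 FPKM in heart IgG. Muscle libraries held 3.17, 3.63 and 3.36 FPKM in ICB and 3.22, 2.32 and 3.72 FPKM in IgG. The heart groups were separate and the muscle groups overlapped. Its difference between tissues was -0.61 ± 0.21 (SE), with an adjusted p of 0.742 (limma).

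The interferon-gamma list had 21 of 26 members lower in heart and 24 of 26 higher in muscle and medians of -0.09 and 0.32. Without heart ICB replicate 3, 15 of 26 were lower in heart, with a median of -0.01. Without muscle IgG replicate 2, 17 of 26 were higher in muscle, with a median of 0.13, and the median difference between tissues was -0.17 in place of -0.40. Without muscle ICB replicate 3 the muscle median was 0.12. Gbp7, an interferon-induced GTPase, was opposite with no overlap. It had 3.88, 4.13 and 3.47 FPKM in heart ICB and 5.68, 4.79 and 4.23 FPKM in heart IgG, against 3.14, 4.01 and 5.6 FPKM in muscle ICB and 2.86, 1.78 and 2.86 FPKM in muscle IgG. Cd274, the PD1 ligand PD-L1 and itself an interferon target, had 3.56, 3.01 and 3.13 FPKM in heart ICB and 3.93, 4.18 and 2.62 FPKM in heart IgG. The levels in muscle were 2.60, 2.85 and 3.99 FPKM in ICB and 1.97, 1.15 and 2.54 FPKM in IgG, just separate. The targets of the antibodies, Pdcd1 and Ctla4, stayed under the filter and were not tested.

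The core of the ISRE, GAAA, any 2 bases and GAAA on either strand, was searched in the 250 bases before each start in the RefSeq promoter table (GRCm38.p6), where 7992 of the tested genes were matched by symbol. It occurred in 9 of 17 matched type I interferon genes (52.9%), in 8 of 18 matched interferon-gamma genes (44.4%) and in 247 of the 7992 genes (3.09%). The lists were chosen by function, so this describes them and says nothing of the response to blockade. The genes shown are Ifit3, an interferon-induced RNA-binding protein, and Trim30a, a TRIM-family protein, as interferon genes that hold the letters. They were lower on average in heart ICB (-0.57 for Ifit3 and -0.38 for Trim30a) and higher on average in muscle ICB (0.25 and 0.43), and the groups overlapped in both tissues. Capitals mark the ISRE letters, read here on the gene's strand or as their reverse complement. Ifit3 lies on the plus strand at chr19:34583279-34583528, and Trim30a on the minus strand at chr7:104465194-104465443.
Ifit3: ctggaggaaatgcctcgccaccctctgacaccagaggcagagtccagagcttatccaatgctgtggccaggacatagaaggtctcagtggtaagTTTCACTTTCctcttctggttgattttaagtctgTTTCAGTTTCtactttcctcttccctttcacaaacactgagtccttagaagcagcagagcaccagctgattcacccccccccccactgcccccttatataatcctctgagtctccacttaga
Trim30a: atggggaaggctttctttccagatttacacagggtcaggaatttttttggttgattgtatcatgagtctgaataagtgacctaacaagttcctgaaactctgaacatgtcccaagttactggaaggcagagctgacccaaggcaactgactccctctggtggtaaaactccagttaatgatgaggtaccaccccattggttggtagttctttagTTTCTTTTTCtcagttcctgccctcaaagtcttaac

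The heat shock and unfolded protein list was slightly lower in ICB, with its heart direction lost on the TPM scale. Chaperones of the endoplasmic reticulum, which it holds beside cytosolic ones, fold secreted and membrane proteins, and their genes are induced together by the unfolded protein response through the factors ATF6 and XBP1. Of its 36 tested members, 21 were lower and 15 higher in heart, and 29 were lower in muscle, with medians of -0.08 and -0.14. The list value was 5.17, 5.03 and 5.20 in heart ICB and 5.34, 5.30 and 5.36 in heart IgG. In muscle it was 5.09, 5.16 and 5.03 in ICB and 5.40, 5.35 and 5.17 in IgG. The ICB libraries lay under the IgG libraries in both tissues, with a narrow gap in muscle. With libraries rescaled to a common sum the heart median was 0.00. In heart 10 members were lower with no overlap, against 4.89% of all genes: Hspa5, Calr, Creld2, Dnajb9, Hsp90b1, Hspa8, Manf, Pdia3, Pdia4 and Pdia6. The count was 16 without heart ICB replicate 3, against 9.31% of all genes. All but Hspa8 of these 10 are proteins of the endoplasmic reticulum. In muscle 4 were, namely Atf4, a stress transcription factor, and the cytosolic or mitochondrial chaperones Hsp90aa1, Hspb1 and Hspe1, against 5.62% of all genes. The count was 9 without muscle IgG replicate 2, against 10.5% of all genes. No member was lower with no overlap in both tissues (0 of 36), against 0.17% of all genes, so few or none would be expected.

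Manf, a protein of the endoplasmic reticulum that is secreted under stress, was lower in heart ICB. It had 13.6, 9.10 and 15.4 FPKM in heart ICB and 29.3, 24.6 and 27.7 FPKM in heart IgG. In muscle it had 6.68, 8.73 and 8.21 FPKM in ICB and 7.83, 6.6 and 7.65 FPKM in IgG. The heart groups were far apart and the muscle groups overlapped. The difference between tissues was -1.15 ± 0.24 (SE), with an adjusted p of 0.742 (limma). Hspa5, the chaperone BiP, had 158, 135 and 171 FPKM in heart ICB and 244, 213 and 259 FPKM in heart IgG. Its muscle levels were 46.4, 49.3 and 56.2 FPKM in ICB and 61.6, 55.5 and 53.0 FPKM in IgG. Heart groups were separate and muscle groups overlapped. It differed by -0.63 in heart and by -0.16 in muscle, and its mean effect of -0.39 ± 0.09 (SE) had an adjusted p of 0.967 (limma). With estimated library weights Manf passed in heart, at -1.18 ± 0.14 (SE) and an adjusted p of 0.017 (limma).

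The endoplasmic reticulum stress element, which ATF6 binds with NF-Y, was searched in the same windows. Its letters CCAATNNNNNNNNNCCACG, on either strand, occurred before 7 of 30 matched members of the list (23.3%) and before 12 of the 7992 genes (0.15%). The list members were Hspa5, Hsp90b1, Dnajc3, Calr, Canx, Pdia6 and Creld2. Of these 7, Hspa5, Hsp90b1, Calr, Pdia6 and Creld2 had heart groups that did not overlap, all lower in ICB. That was so for 10 of the 36 tested members of the list and 4.89% of all genes. The list was chosen by function, so a link between the element and the response to blockade was not tested. A match is a description of the window, not a site shown to be bound. The sequences of 3 of them are shown because their heart groups were separate, with the element, or its reverse complement, in capitals. Calr and Creld2 encode a calcium-binding chaperone and a secreted stress protein. Hspa5 lies on the plus strand (chr2:34771840-34772089), Calr on the minus strand (chr8:84846932-84847181) and Creld2 on the plus strand (chr15:88819396-88819645).
Hspa5: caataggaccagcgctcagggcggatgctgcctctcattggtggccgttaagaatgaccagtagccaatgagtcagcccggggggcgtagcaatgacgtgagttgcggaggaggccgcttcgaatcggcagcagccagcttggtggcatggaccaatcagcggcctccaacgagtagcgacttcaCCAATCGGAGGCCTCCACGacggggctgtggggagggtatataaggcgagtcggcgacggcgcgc
Calr: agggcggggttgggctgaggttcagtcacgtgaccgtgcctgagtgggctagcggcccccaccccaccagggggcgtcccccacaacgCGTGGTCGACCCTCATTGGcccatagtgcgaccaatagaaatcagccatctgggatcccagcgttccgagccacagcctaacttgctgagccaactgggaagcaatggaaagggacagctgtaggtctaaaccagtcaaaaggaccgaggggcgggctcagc
Creld2: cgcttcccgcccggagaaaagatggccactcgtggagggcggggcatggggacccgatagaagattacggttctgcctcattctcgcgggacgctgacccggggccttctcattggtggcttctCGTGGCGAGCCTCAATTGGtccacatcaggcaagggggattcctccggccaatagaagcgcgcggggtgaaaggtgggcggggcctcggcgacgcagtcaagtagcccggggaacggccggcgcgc

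**Figure D4:**
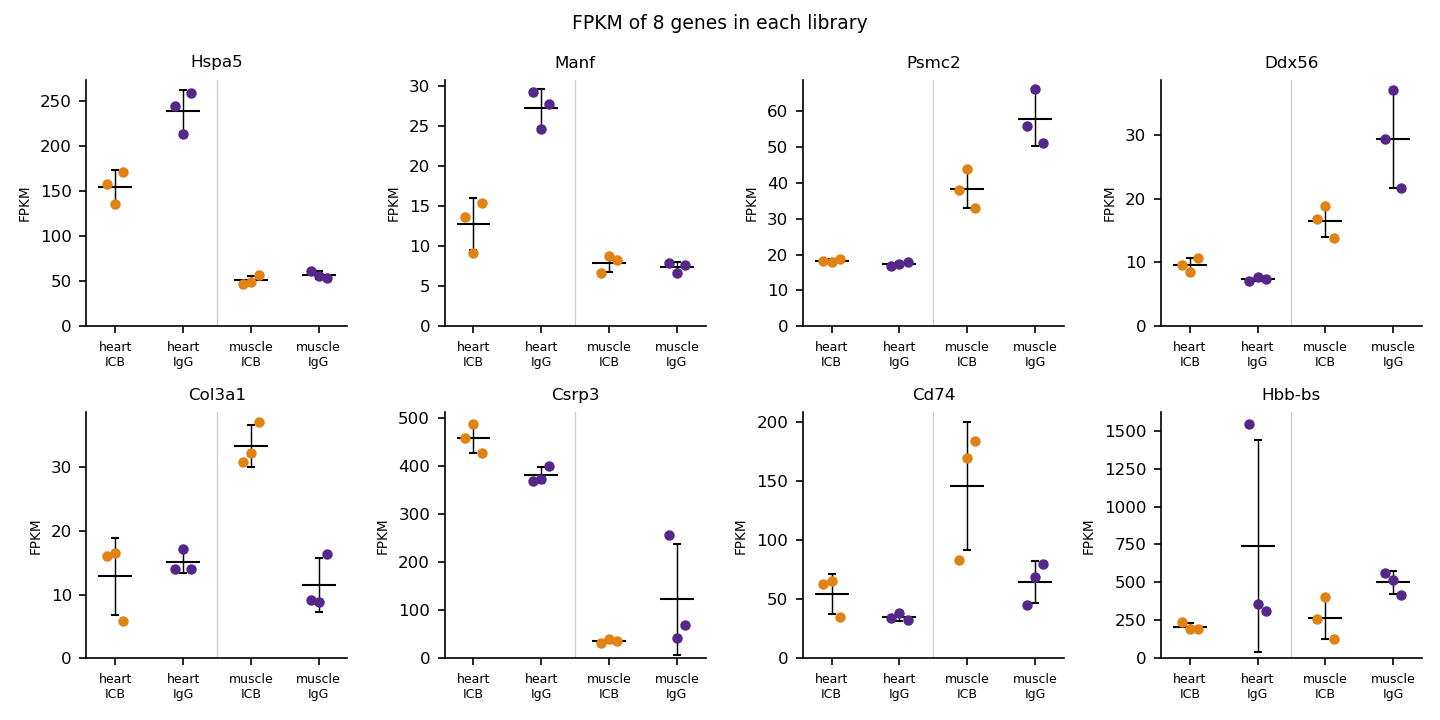
FPKM of 8 genes in each library, with the mean (line) and standard deviation (bar) of each group of 3. Hspa5 and Manf are lower in heart ICB, Psmc2 and Ddx56 are lower in muscle ICB and slightly higher in heart ICB, Col3a1 and Cd74 are higher in muscle ICB, and Hbb-bs is lower in both tissues.

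Haemoglobin RNA was lower in ICB libraries of both tissues. It comes from red cells and their precursors in blood held in the tissue. All 8 tested erythroid genes were lower in heart and 7 of 8 in muscle, with medians of -1.31 and -1.12, and the groups did not overlap in 7 members in heart and 5 in muscle, against 4.89% and 5.62% of all genes. In 4 they did not overlap in both tissues, against 0.17% of all genes. Hbb-bs, an adult beta globin, had 239, 194 and 195 FPKM in heart ICB and 1546, 355 and 314 FPKM in heart IgG. Muscle libraries held 262, 402 and 125 FPKM in ICB and 561, 519 and 419 FPKM in IgG. Heart IgG replicate 1 was the highest by far, and without it the heart median was -0.56, 7 members did not overlap (against 9.04% of all genes), and the median difference between tissues was 0.45 in place of -0.36. Alas2, the first enzyme of haem synthesis in red cell precursors, had 7.27, 4.86 and 8.51 FPKM in heart ICB and 48.4, 9.59 and 9.64 FPKM in heart IgG. Haemoglobin took 0.02663% to 0.03414% of the reads in heart ICB and 0.04726% to 0.2553% in heart IgG. Hba-a1 and Hba-a2 are nearly identical copies, so their separate values are uncertain.

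Isg20, an interferon-induced RNA exonuclease, was lower in both tissues with no overlap. It had 2.32, 2.08 and 2.40 FPKM in heart ICB and 7.05, 2.52 and 3.28 FPKM in heart IgG, and 2.08, 2.59 and 2.17 FPKM in muscle ICB against 5.32, 4.08 and 3.64 FPKM in muscle IgG. Egln3, an oxygen-sensing prolyl hydroxylase, was lower in both with no overlap as well. It had 31.7, 34.5 and 23.5 FPKM in heart ICB and 39.8, 48.2 and 35.5 FPKM in heart IgG, and 38.5, 35.8 and 34.1 FPKM in muscle ICB against 73.9, 124 and 48.2 FPKM in muscle IgG. Its mean effect was -0.76 ± 0.19 (SE), with an adjusted p of 0.967 (limma). Nip7 and Nifk, factors of ribosome assembly, were lower in both with no overlap, with mean effects of -0.30 and -0.28.

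Among genes higher in both tissues, Abca9 had the smallest unadjusted p for the mean effect. Abca9, a lipid transporter of the ABC family, had 5.47, 5.64 and 5.75 FPKM in heart ICB and 5.02, 4.79 and 4.57 FPKM in heart IgG, and 7.73, 6.10 and 7.12 FPKM in muscle ICB against 3.49, 4.63 and 3.77 FPKM in muscle IgG. Its mean effect was 0.44 ± 0.08 (SE), with an adjusted p of 0.967 (limma), and neither tissue's groups overlapped. Pltp, the phospholipid transfer protein, had 13.9, 16.7 and 10.1 FPKM in heart ICB and 10.1, 10.9 and 7.63 FPKM in heart IgG, which overlapped. The levels in muscle were 12.8, 22.6 and 23.9 FPKM in ICB and 8.37, 9.85 and 10.7 FPKM in IgG, which did not. Others higher in both with no overlap were Slco3a1, an organic anion transporter (mean effect 0.40), Prnp, the prion protein (0.30), and Fmnl1, a formin of blood cells (0.29).

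The smooth muscle and pericyte list, which marks the walls of vessels, had 7 of 12 members higher in heart and 9 of 12 in muscle, with medians of 0.01 and 0.28. Its list value was 4.52, 4.55 and 4.52 in heart ICB and 4.51, 4.51 and 4.47 in heart IgG. In muscle it was 4.58, 4.62 and 4.55 in ICB and 4.51, 4.33 and 4.31 in IgG. The ICB libraries lay above the IgG libraries in both tissues, in heart by a narrow gap.

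**Figure D5:**
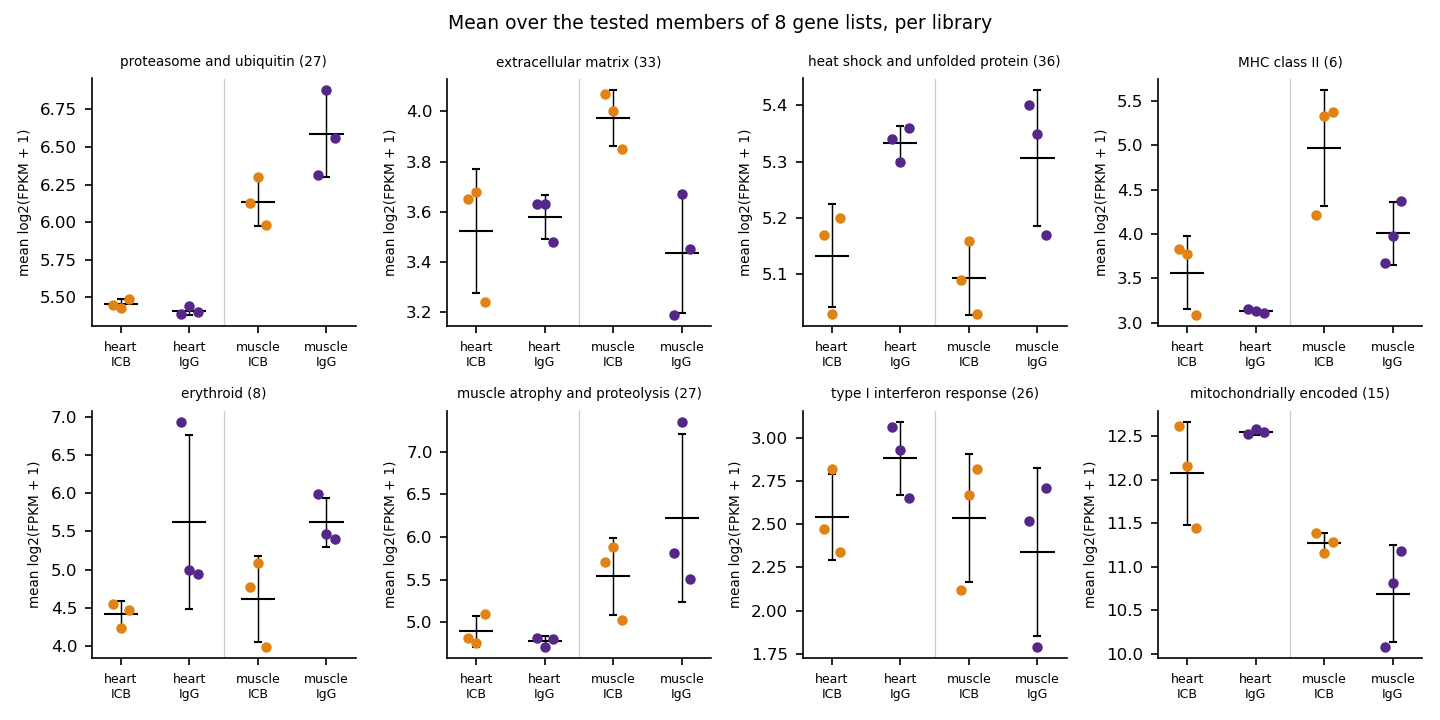
The mean log2(FPKM + 1) over the tested members of 8 lists in each library, with the mean and standard deviation of each group of 3. Proteasome and matrix values separate in muscle, heat shock and erythroid values separate in both tissues, and muscle IgG replicate 2 stands out at 7.35 in the atrophy list.

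Other genes with opposite directions and no overlap are described next, chosen by their values. Ddx56, a nucleolar RNA helicase of ribosome assembly, had 9.57, 8.52 and 10.6 FPKM in heart ICB and 7.14, 7.68 and 7.34 FPKM in heart IgG. In muscle it had 16.8, 18.8 and 13.8 FPKM in ICB and 29.4, 37.1 and 21.7 FPKM in IgG. Its difference between tissues was 1.11 ± 0.25 (SE). Leaving aside genes with only a predicted name, its unadjusted p (0.000797, limma) was the smallest among genes with that difference above 0. Ctnnbl1, a component of spliceosomes, differed by 0.18 in heart and by -0.50 in muscle. Kat8, a histone H4 acetyltransferase, differed by 0.19 in heart and by -0.48 in muscle. Reep1, a protein that shapes the endoplasmic reticulum, went the other way, with 5.50, 4.92 and 3.35 FPKM in heart ICB and 6.14, 6.71 and 7.25 FPKM in heart IgG, against 24.1, 17.9 and 17.4 FPKM in muscle ICB and 14.6, 13.9 and 15.1 FPKM in muscle IgG.

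The heart values of contractile genes rested on single libraries. The cardiac sarcomere list held 20 genes, and those tested had to reach 1 FPKM in muscle as well. The cardiac markers Tnnt2, Tnni3 and Ryr2 stayed under 1 FPKM in every muscle library, and neither they nor Myh6 were tested. Of the 14 tested genes of the list, 8 were higher and 6 lower in heart, with a median of 0.09, and 8 were lower in muscle. In heart 2 were higher with no overlap, against 4.88% of all genes. Without heart ICB replicate 3, 10 were higher, 7 of them with no overlap against 10.9% of all genes, and the median was 0.14, while without heart ICB replicate 2 it was 0.02. Of 18 genes of the fast skeletal sarcomere list, only 6 reached the filter in heart and were tested. Myh1, Myh2, Myh4, Tnnt3 and Atp2a1 stayed under 1 FPKM in every heart library and were not. Of the 6, 2 were higher in heart, or 6 without heart ICB replicate 3, with 3 of them not overlapping, against 10.9% of all genes. Csrp3, a mechanosensing protein of the Z-disc, had 458, 488 and 427 FPKM in heart ICB and 370, 374 and 400 FPKM in heart IgG. Its muscle levels were 31.7, 41.2 and 36.3 FPKM in ICB and 256, 42.7 and 70.0 FPKM in IgG. Muscle IgG replicate 1 was the highest, muscle IgG replicate 2 lay just above the ICB libraries and replicate 3 clearly above them. The difference between tissues was 1.58 in log2, or 0.84 without muscle IgG replicate 1. Slow-fibre genes were lower in muscle in 9 of 10, with a median of -0.48, while the heart median was -0.01, or 0.09 with libraries rescaled to a common sum and 0.13 without heart ICB replicate 3, where 5 of the 10 were higher with no overlap, against the same 10.9%. Muscle IgG replicate 1 also had the highest slow-fibre list value, at 6.06, against 5.19 and 5.75 in the other muscle IgG libraries and 5.46, 5.20 and 4.91 in muscle ICB. Tnnt1, slow skeletal troponin T, had 9.29, 6.43 and 6.03 FPKM in heart ICB and 6.02, 7.75 and 7.49 FPKM in heart IgG. Muscle libraries held 42.2, 28.8 and 22.9 FPKM in ICB and 69.6, 43.2 and 66.6 FPKM in IgG, with no overlap.

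Mitochondrially encoded genes were mostly lower in heart ICB and higher in muscle ICB. They encode respiratory chain subunits and ribosomal RNAs and are copied from the mitochondrial genome. Of 15, 12 were lower in heart and 13 higher in muscle, with medians of -0.25 and 0.35. The gene mt-Nd4, for a subunit of complex I, was opposite with no overlap. It had 16234, 11943 and 8033 FPKM in heart ICB and 17174, 17082 and 17629 FPKM in heart IgG, against 9196, 10350 and 9302 FPKM in muscle ICB and 7757, 8164 and 8953 FPKM in muscle IgG. Its difference between tissues was -0.79 in log2, but 0.19 under quantile normalization. Heart ICB replicate 3 was the lowest heart library, and without it 10 of 15 were lower in heart and the list's median was -0.18, against -0.48 without heart ICB replicate 1. The muscle median was 0.19 without muscle IgG replicate 1. Under quantile normalization the heart median was 0.06. Mitochondrial reads were 25.61%, 21.16% and 16.63% of the library in heart ICB and 22.59%, 23.33% and 23.04% in heart IgG. In muscle they were 10.41% to 12.25% in ICB and 8.417% to 10.18% in IgG, and the part of these shares in the other results was not tested. The 44 nuclear genes of oxidative phosphorylation had medians of -0.06 in heart and -0.00 in muscle, and in heart 9 were higher and 35 lower. Leaving out heart ICB replicate 3, 39 were higher and 5 lower in heart, with a median of 0.06. The genes mt-Nd4 and mt-Nd4l overlap, and how reads were split there is not stated in the labels.

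Ribosomal protein genes were mostly lower in both tissues, and each direction rested on single libraries. Of 51 tested, 50 were lower in heart and 50 in muscle, with medians of -0.12 and -0.16. The groups did not overlap, with ICB lower, in 1 of 51 in heart and 2 of 51 in muscle, against 4.89% and 5.62% of all genes. Without heart ICB replicate 3, 24 were lower and 27 higher in heart, with a median of 0.00. The muscle median was 0.00 without muscle IgG replicate 3 and -0.31 without muscle IgG replicate 1. Rpl4, a large-subunit protein, had 245, 251 and 233 FPKM in heart ICB and 271, 263 and 249 FPKM in heart IgG. The levels in muscle were 408, 448 and 392 FPKM in ICB and 450, 456 and 531 FPKM in IgG.

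Of 8 tested members of the adipocyte list, 7 were higher in heart and 7 lower in muscle, with medians of 0.17 and -0.64. The muscle median was -0.98 without muscle IgG replicate 1 and -0.41 without muscle IgG replicate 3. To be tested, all 8 had to reach 1 FPKM in heart, where Adipoq and the other defining fat markers named above did not. Cidea, a lipid droplet protein, had 25.9, 31.3 and 32.3 FPKM in heart ICB and 28.7, 27.6 and 27.3 FPKM in heart IgG. In muscle it had 2.96, 3.85 and 3.77 FPKM in ICB and 4.61, 15.5 and 18.2 FPKM in IgG, with no overlap. With all 12 libraries its difference between tissues was 1.51 ± 0.49 (SE), with an adjusted p of 0.742 (limma). Without muscle IgG replicate 1 that difference was 2.07 ± 0.18 (SE), with an adjusted p of 0.00316 (limma). Cidea was the only gene to pass that comparison in the fits run. The library left out held 4.61 FPKM, the muscle IgG value nearest the ICB libraries, so the pass rests on removing that value. The summed adipocyte markers overlapped between muscle ICB and muscle IgG, as given above, and their part in the Cidea values was not tested.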

How the data were processed

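RNA of 6 tissues was sequenced, and the 12 heart and muscle libraries were used. Per the submitters' processing notes, the aligner was HISAT2 2.1.0 and the genome build mm10. The deposited values are FPKM per gene, scaled by the authors; the labels do not state the counter or strandedness, so overlapping and antisense genes cannot be told apart. Values were analysed as log2(FPKM + 1), after leaving out genes under 1 FPKM in more than 3 of the 6 libraries of either tissue. limma 3.58.1 (R 4.3.3) was fitted on 4 group means with a trended prior and Benjamini-Hochberg adjustment at 0.05. Depth was recovered as whole reads from the FPKM steps and used for limma-voom as an alternative. Scripts ran on Python 3.11.15 and were tested on simulated data. Gene positions are GENCODE's and promoters RefSeq's.

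The comparison, members and gene lists were chosen with earlier results of these data known. Named genes were, in each direction, the 10 with the smallest p for the difference and the mean effect, the 10 largest among genes with no overlap in both tissues, and up to 4 members per list by smallest p. Psmd4, Fbxo32, Ddit4, Lyve1, Alas2, Ifit3, Calr and Creld2, and members listed as not overlapping, were named after their values were seen. Alternatives were another pseudocount, filters, scalings, library weights, all 36 libraries, a replicate block and leaving out libraries; the counts without particular libraries and the list medians over every listed gene above 0 were chosen after seeing the data.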

Additional observations from a re-analysis of the deposited data

How the results depend on the processing

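Of 1763 values of the genes named above under the alternatives, 1723 kept their direction and side of the threshold and 16 took the other sign with 0 of those passing. No gene passed in the main fit and the genes were chosen by these same values, so this stability says little. Of 305 differences and mean effects of the genes chosen by rule, 42 took the other sign in at least 1 alternative. Of 1062 values of counts and list medians 979 stayed the same and 28 took the other sign. The cause of the others was not tested. Genes passing in muscle numbered 13 higher and 13 lower with all 36 libraries in the fit and 1 lower with no filter, and 1 passed lower in heart with library weights. Without a filter, genes with no overlap were 835 higher and 841 lower in heart, 1059 higher in muscle, 48 higher in both and 57 lower in heart and higher in muscle. Requiring a gap of 0.1 left 91 higher and 122 lower in heart, 254 higher and 225 lower in muscle, 1 higher and 2 lower in both, 5 higher in heart and lower in muscle, and 3 the other way. Rescaling to TPM moved the median of all genes by 0.090 in heart and 0.096 in the difference. On that scale 159 genes were lower in heart with no overlap, 6 lower in both and 14 lower in heart and higher in muscle, and median-of-ratios scaling gave 61 higher in heart and lower in muscle. The same-sign share was 46.4% and 47.8% with libraries of different title numbers, with rho of -0.1 and -0.057, and r and rho were -0.0827 and -0.0929 with no filter. On the TPM scale, the heart median was 0.00 for heat shock genes, 0.03 for matrix and 0.09 for slow fibres, and the heat shock difference was 0.08, or 0.01 with median-of-ratios scaling. Quantile normalization gave heart medians of 0.06 for mitochondrially encoded and 0.03 for slow-fibre genes and a mitochondrial difference of -0.09. The erythroid difference was 0.03 over every listed gene above 0. Quantile normalization gave a difference of 0.19 for mt-Nd4 and -0.06 for Rpl4 and mean effects of -0.08 for Timd4 and -0.02 for Trim30a.

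Leaving out each library in turn, 0 to 1 genes passed higher for the difference, 0 to 1 lower for the mean effect, and 0 to 22 higher and 0 to 9 lower in muscle, with the highest muscle counts without muscle IgG replicate 3. The same-sign share ranged from 42.5% to 50.1%, r from -0.160 to 0.0349 and rho from -0.194 to 0.0147. Heart medians ranged from -1.70 to -0.56 for erythroid, -0.02 to 0.24 for macrophage, -0.17 to -0.06 for heat shock, -0.19 to 0.10 for matrix and -0.06 to 0.13 for slow-fibre genes. Muscle medians ranged from -0.09 to 0.37 for type I interferon, -0.83 to 0.09 for glucocorticoid and -0.98 to -0.41 for adipocyte genes. Differences ranged from -0.77 to 0.45 for erythroid, -1.10 to -0.44 for macrophage, -0.09 to 0.06 for heat shock, -0.10 to 0.18 for ribosomal, 0.21 to 1.03 for atrophy, 0.14 to 1.17 for glucocorticoid and 0.66 to 1.14 for adipocyte genes. Single genes had differences from -0.82 to 0.39 for Hba-a1 and -0.18 to 1.22 for Hba-a2, and mean effects from -0.08 to 0.11 for Timd4 and -0.06 to 0.13 for Trim30a.

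Libraries with the same title number correlated at -0.064, 0.239, 0.174 and 0.229 in their deviations. Heart and muscle libraries of the same treatment with different numbers correlated at -0.246 to 0.158, and those of different treatments at -0.303 to 0.257. These values do not settle whether a number stands for 1 mouse, and the main fit did not pair libraries. With the number as a replicate block, 0 genes passed for the difference, with 535 at an unadjusted p under 0.05 as a fixed effect (2 residual degrees of freedom, and -0.50 for Hba-a2) and 790 as a random effect (correlation 0.1843). With 3 libraries per group, small effects were not detectable.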
